A study of Mus musculus with 9 samples.

Results

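The adult myosin heavy chain genes described here are Myh4, Myh1, Myh2, Myh7 and Myh7b, which are 5 of the 54532 genes in the count table. They were found by gene symbol, through the Ensembl identifier of each row. All 5 had counts in every library and passed the filter on low counts in every comparison. Myh4 and Myh1 made up almost all of their summed level in injured tibialis anterior muscle. Between them, the balance of Myh4 to Myh1 was close to constant in young PBS muscle and differed several-fold among the old PBS and old rMETRNL libraries. None of the 5 genes passed the test between any pair of groups.

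Myosin heavy chains are the motor subunits of the thick filament, and the heavy chain that a muscle fibre makes sets how fast it can shorten. Myh4, Myh1 and Myh2 encode the fast chains known as IIb, IIx and IIa, Myh7 encodes the slow chain that is shared with the heart, and Myh7b encodes a related slow chain that adult limb muscle makes at low level. Fast mouse limb muscles such as the tibialis anterior are known for fibres with the IIb and IIx chains, and regenerating fibres first make the embryonic and neonatal chains of Myh3 and Myh8.

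The study asked how age and recombinant Meteorin-like protein (rMETRNL), a secreted cytokine, bear on gene expression in regenerating muscle. C57/BL6J mice were injected with BaCl2, which kills muscle fibres, and the muscle then received 3 intramuscular injections, the last at 48 h. The young PBS group (4 months, libraries 1, 2 and 3) and the old PBS group (24 months, libraries 2, 3 and 4) received PBS, and the old rMETRNL group (24 months, libraries 1, 2 and 3) received the protein at 0.1 ug in the study's results, or the same number of ng in its methods. All 3 groups were injured, so no library shows muscle before damage. The sources differ on the material: whole tibialis anterior at day 8 in the study, a suspension of damaged muscle cells in the sample labels, and day 4 in the series description. The sample labels do not say that the libraries of a group come from separate mice, so p-values measure the spread between these libraries, which may be technical.

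Library totals ranged from 16238700 to 22522560 counts. The fibre markers were high whatever the material: 16 genes used by fast and slow fibres alike held between 6.43% and 7.41% of all counts. Some libraries held RNA of other tissues. The summed level of 6 brain genes was 51.6 to 149 CPM (counts scaled to library size with TMM factors) in the 3 old PBS libraries and 3.33 to 5.70 CPM in the other 6, and 3 of the 6 brain genes passed the test as higher in old PBS than in young PBS and 4 as lower in old rMETRNL than in old PBS. The 6 keratinocyte genes summed to 114 CPM in young PBS 2 and to 13.3 to 23.6 CPM elsewhere. Heart genes summed to 1.07 to 4.72 CPM, with Nppa and the atrial light chain Myl7 at or near 0. Ryr2 of that list had 31, 19 and 32 counts in old PBS 2, 3 and 4, the same 3 libraries that were high in the brain genes. In young PBS 1, 2 and 3 Ryr2 had 5, 3 and 4 counts and in each old rMETRNL library 0. Whether the Ryr2 RNA came from heart or brain, and whether any Myh7 RNA came from heart, was not tested.

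The 3 fast genes lie side by side on 1 strand of chromosome 11, and their promoters hold runs of bases in common. In GRCm38 coordinates, Myh2 spans chr11:67171027-67197517, Myh1 spans chr11:67200052-67224575 and Myh4 spans chr11:67238029-67260446, all on the plus strand, with Myh3 upstream of them and Myh8 and Myh13 downstream. Myh7 lies at chr14:54970684-54994626 on the minus strand and Myh7b at chr2:155611212-155634307 on the plus strand. The 250 bases before the RefSeq start of the 3 fast genes (GRCm38.p6, plus strand) are printed because these genes give almost all the heavy chain signal and move unequally across the libraries. Capitals mark the runs of 8 or more bases that a search found in all 3 promoters.

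Myh2, chr11:67170777-67171026: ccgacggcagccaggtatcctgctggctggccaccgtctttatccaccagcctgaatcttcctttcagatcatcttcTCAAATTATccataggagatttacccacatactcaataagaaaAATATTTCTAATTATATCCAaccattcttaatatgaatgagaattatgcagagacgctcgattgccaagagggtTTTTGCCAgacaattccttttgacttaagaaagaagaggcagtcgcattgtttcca
Myh1, chr11:67199852-67200101: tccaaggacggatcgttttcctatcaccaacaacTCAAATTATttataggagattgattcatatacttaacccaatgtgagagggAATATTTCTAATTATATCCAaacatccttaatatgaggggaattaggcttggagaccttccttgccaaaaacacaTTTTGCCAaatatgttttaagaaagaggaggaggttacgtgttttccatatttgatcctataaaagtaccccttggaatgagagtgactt
Myh4, chr11:67237562-67237811: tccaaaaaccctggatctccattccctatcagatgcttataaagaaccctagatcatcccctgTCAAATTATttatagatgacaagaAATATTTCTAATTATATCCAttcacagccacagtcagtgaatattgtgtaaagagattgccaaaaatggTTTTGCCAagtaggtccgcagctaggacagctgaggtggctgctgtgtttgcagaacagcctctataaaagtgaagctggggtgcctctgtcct

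The longest run, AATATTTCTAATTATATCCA, has 20 bases and was found, on either strand, in 3 of 32851 RefSeq promoters of this length (0.00913%), those of Myh1, Myh2 and Myh4. It ended 146, 111 and 144 bases before the start of Myh1, Myh2 and Myh4. The second run, TCAAATTAT, stood upstream of it in all 3 genes and was in 0.174% of promoters, Myh8 among them. The third, TTTTGCCA, stood closer to the start and was in 0.98%. The letters TATAAA, the core of a TATA box, were found 27 to 32 bases before the start of Myh1 and 26 to 31 bases before that of Myh4 and again farther upstream in both, were not in the window of Myh2, Myh7 or Myh7b, and were in 12.4% of all promoters on either strand. Letters that match CANNTG, an E-box, the form of site that myogenic factors bind, were in 66.2% of promoters and in those of Myh4, Myh7 and Myh7b. None of the 3 shared runs was in the window of Myh7 or Myh7b. The RefSeq start of Myh4 lies upstream of its start in the annotation used for coordinates, and that of Myh1 lies downstream of its annotated start. The end of the Myh1 window, with the TATAAA 27 to 32 bases before the RefSeq start, thus lies inside the annotated gene. These matches are letters in a window and were not tested as sites.

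The transcripts of the fast genes are also close to each other in sequence, which bears on how reads are assigned. Over their aligned longest transcripts, Myh1 and Myh2 were identical at 90.3% of bases, Myh1 and Myh4 at 89.6%, and Myh2 and Myh4 at 87.4%, against 78% for Myh1 and Myh7 and 73.4% for Myh7 and Myh7b. Windows of each transcript were sought, on either strand, in transcripts of other genes, antisense genes included. Of all windows of 50 bases, 32.1% were found for Myh1, 28.9% for Myh2, 18.9% for Myh4, 28.2% for Myh7 and 0% for Myh7b. With windows of 100 bases the values were 14.7%, 11.2%, 3.85%, 13.9% and 0%, and with 150 bases they were 6.22%, 3.59%, 0.511%, 6.5% and 0%. Sequence alone cannot place reads that lie wholly in such windows on 1 gene. Where a window is shared only with an antisense gene over the same exon, the strand of the read is needed. Read length, strand and multiple mapping settings were not given in the sources used here, so counts of Myh1, Myh2, Myh4 and Myh7 are uncertain by such windows. The antisense genes among them share 515 exon bases with Myh1 (Myhas) and 237 with Myh2 (9430073C21Rik). With Myh7 they share 484 (Mhrt), 523 (Gm31251) and 142 exon bases (Gm29015).

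Divided by exon length, the order of the levels was Myh4, Myh1, Myh2, Myh7 and Myh7b. Their means over the 9 libraries were 4461, 2658, 138, 1.5 and 0.176 CPM per kb. Myh4 stood above Myh1 in 6 of 9 libraries and the ranges of the pair overlapped, so these neighbours were not separated beyond their spread. Myh1 stood above Myh2 in 9 of 9 libraries with no overlap, the lowest Myh1 level being 1512 and the highest Myh2 level 209.5 CPM per kb. Myh2 and Myh7 did not overlap either, at 75.2 CPM per kb or more for Myh2 and 4.12 or less for Myh7. Myh7 was above Myh7b in 9 of 9 libraries, although their ranges over libraries overlapped.

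**Figure D1:**
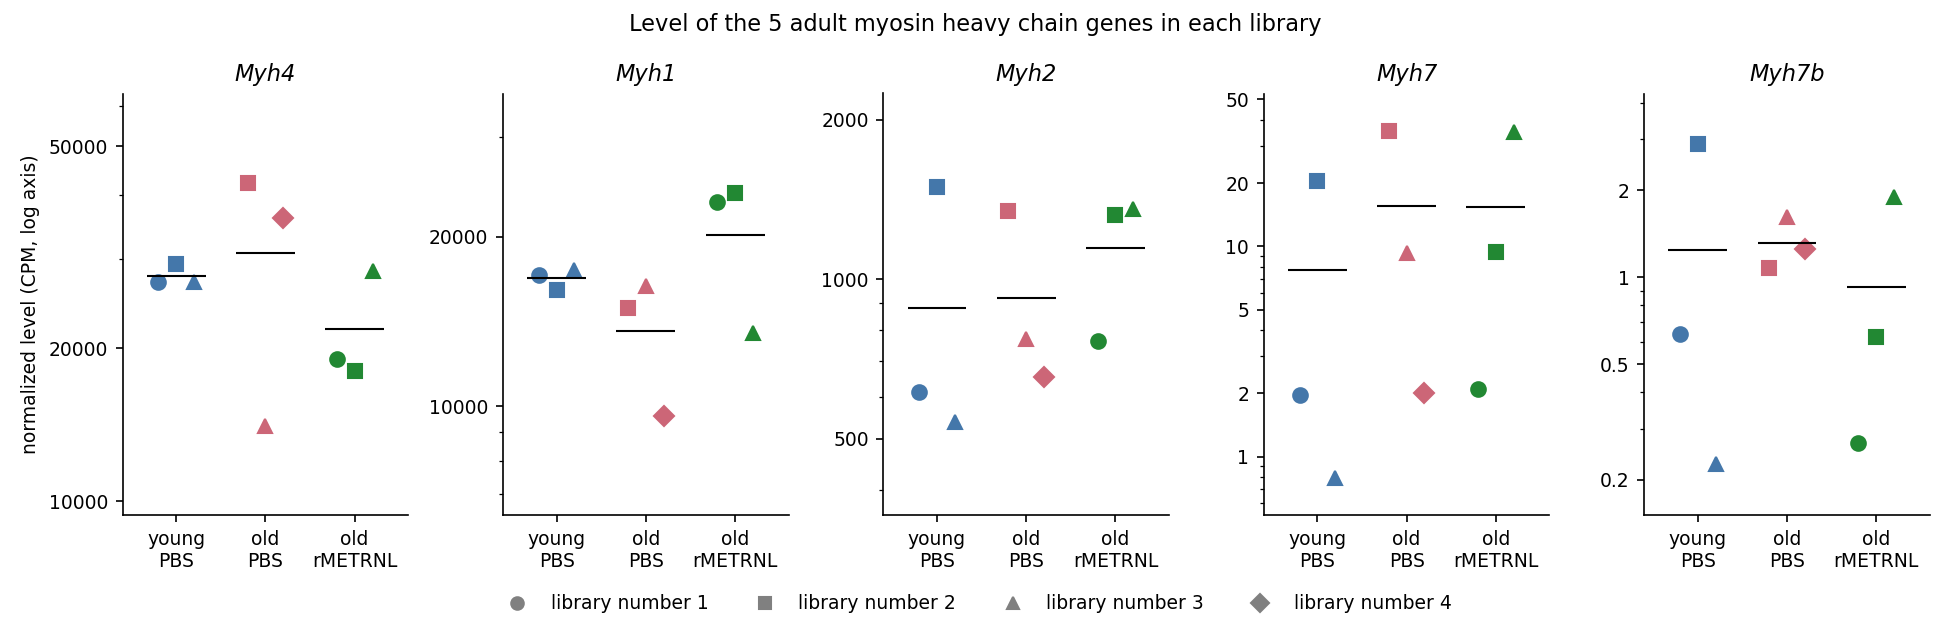
Level of each of the 5 genes (CPM, log axis, a separate scale for each gene) in the young PBS, old PBS and old rMETRNL libraries. Points are libraries, shaped by their number, and bars are group means. The groups overlap for every gene, the young PBS points of Myh4 and Myh1 lie close together, and Myh7 spreads over more than an order of magnitude within each group.

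Myh4, the IIb chain of the fastest fibres, was among the 4 genes with the most counts in every library, and ranked highest of all genes in young PBS 2 and 3. Its level was 27072, 29369 and 27009 CPM in young PBS 1, 2 and 3. It was 42337, 14070 and 36084 CPM in old PBS 2, 3 and 4, and 19093, 18056 and 28436 CPM in old rMETRNL 1, 2 and 3. The young libraries lay within 1.09-fold of each other, whereas old PBS held the highest value (old PBS 2) and the lowest (old PBS 3) of all 9 libraries. In edgeR's quasi-likelihood test, the log2 fold change was 0.15 (SE 0.47, 95% interval -0.93 to 1.22) for old PBS against young PBS, with an adjusted p of 0.994. Between old rMETRNL and old PBS it was -0.50 (SE 0.49, interval -1.60 to 0.60, edgeR adjusted p 0.807). Old rMETRNL against young PBS gave -0.35 (SE 0.21, interval -0.81 to 0.11, edgeR adjusted p 0.9996).

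Myh1, the IIx chain, was the gene with the most counts in old rMETRNL 1 and the 20th in old PBS 4. Its level was 17124, 16056 and 17480 CPM in young PBS 1, 2 and 3. It was 14935, 16338 and 9606 CPM in old PBS 2, 3 and 4, and 23028, 23918 and 13496 CPM in old rMETRNL 1, 2 and 3. Old rMETRNL 1 and 2 were above all the other libraries, but old rMETRNL 3 lay below all but old PBS 4, so the groups overlapped. The edgeR log2 fold change was -0.31 (SE 0.35, interval -1.11 to 0.49, adjusted p 0.994) for old PBS against young PBS. It was 0.56 (SE 0.40, interval -0.34 to 1.46, edgeR adjusted p 0.745) for old rMETRNL against old PBS and 0.25 (SE 0.22, interval -0.24 to 0.75, edgeR adjusted p 0.9996) for old rMETRNL against young PBS. With 1 library left out the 3 values ranged from -0.46 to -0.11, from 0.35 to 0.78 and from 0.11 to 0.47.

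Myh2, the IIa chain of fast oxidative fibres, stood far below both. Its level was 612, 1495 and 537 CPM in young PBS 1, 2 and 3, 1343, 769 and 653 CPM in old PBS 2, 3 and 4, and 766, 1320 and 1354 CPM in old rMETRNL 1, 2 and 3. Young PBS 2, old PBS 2 and old rMETRNL 2 and 3 formed the upper levels, from 1320 CPM up, and the other 5 libraries lay at 769 CPM or less. Each group therefore had libraries at both levels, and the edgeR log2 fold changes were 0.07 (SE 0.44, adjusted p 0.996), 0.31 (SE 0.34, adjusted p 0.833) and 0.38 (SE 0.35, adjusted p 0.9996) in the same order of comparisons.

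Myh7, the slow chain, was measured on few counts. There were 34, 369 and 14 counts in young PBS 1, 2 and 3, 528, 213 and 32 in old PBS 2, 3 and 4, and 39, 167 and 770 in old rMETRNL 1, 2 and 3. As levels these were 1.96, 20.5 and 0.789 CPM, then 35.5, 9.30 and 2.01 CPM, then 2.09, 9.44 and 34.8 CPM. The highest library was 25.9-fold above the lowest in young PBS, 17.7-fold in old PBS and 16.7-fold in old rMETRNL, well beyond counting error (the exact 95% Poisson interval was 7.65 to 23.5 counts for young PBS 3 and 716.6 to 826.4 counts for old rMETRNL 3). Against this spread, the edgeR log2 fold change was 1.01 (SE 1.18, interval -1.67 to 3.69, adjusted p 0.994) for old PBS against young PBS and -0.01 (SE 1.02, interval -2.31 to 2.29, adjusted p 0.999) for old rMETRNL against old PBS. Old rMETRNL against young PBS gave 1.0 (SE 0.98, interval -1.14 to 3.15, edgeR adjusted p 0.9996). Without young PBS 2 the values for old PBS and for old rMETRNL against young PBS were both 3.49, and Myh7 did not pass the test. With no filter on low counts, edgeR called Myh7 as higher in old rMETRNL than in young PBS (log2 fold change 1.01, SE 0.18, adjusted p 1.19e-05). That fit gave infinite prior degrees of freedom, by which the spread of Myh7 itself has no weight: its quasi-likelihood dispersion was 62.4 from its own residuals and 0.761 after moderation, against 22.5 after moderation in the filtered fit.

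Myh7b, the other slow chain, had 198 counts over all 9 libraries. There were 11, 52 and 4 counts in young PBS 1, 2 and 3, 16, 37 and 20 in old PBS 2, 3 and 4, and 5, 11 and 42 in old rMETRNL 1, 2 and 3. Young PBS 2, old rMETRNL 3 and old PBS 3 were highest, at 2.88, 1.90 and 1.62 CPM, and young PBS 3 lowest at 0.226 CPM, near the 0.169 CPM that a count of 3 gives in that library. The edgeR log2 fold changes were 0.08 (SE 0.76, adjusted p 0.996), -0.49 (SE 0.63, adjusted p 0.860) and -0.39 (SE 0.81, adjusted p 0.9996) in the same order. The microRNAs that lie in introns of the slow genes, Mir208b in Myh7 and Mir499 in Myh7b, had 0 counts in every library. Their annotated entries are 77 and 79 bases long. Whether these libraries capture RNA so short was not tested, so the 0 counts do not show absence.

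**Figure D2:**
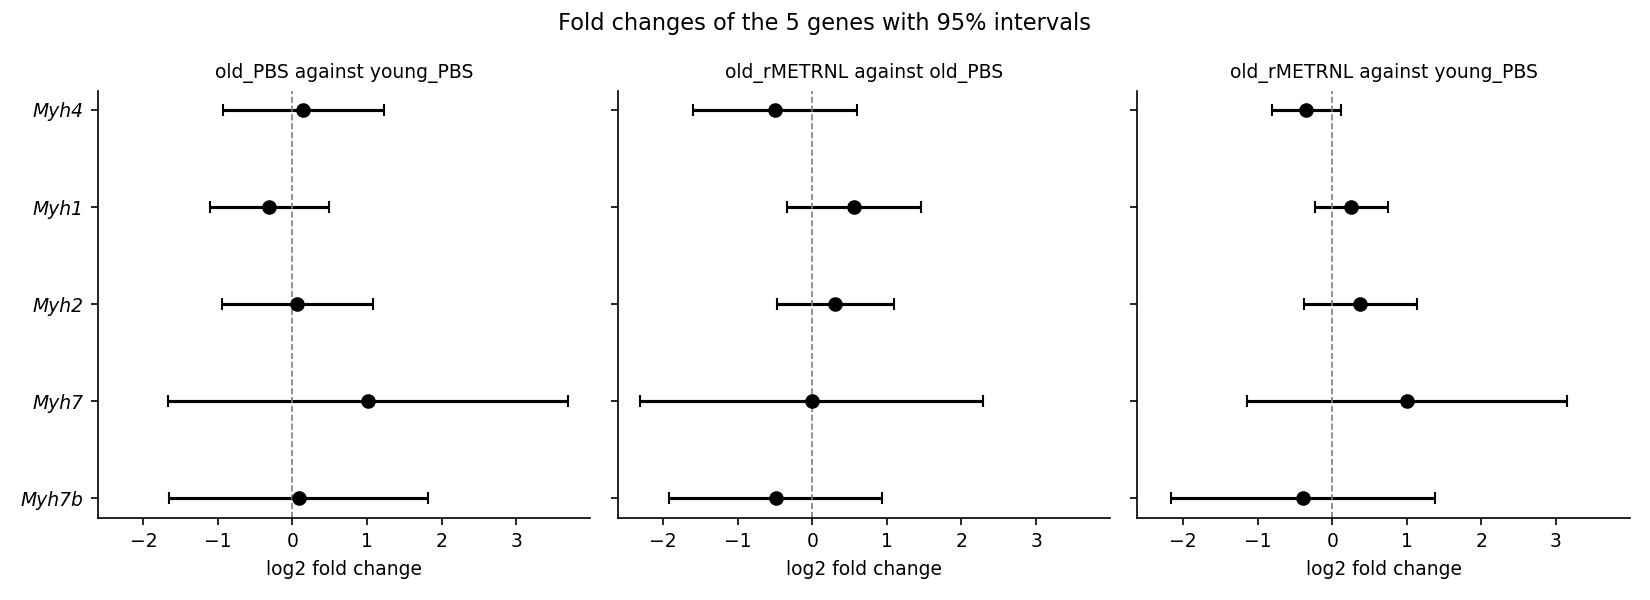
Log2 fold change of each gene by edgeR's quasi-likelihood test for the 3 pairs of groups. Points are estimates and bars 95% intervals. Every interval includes 0, and those of Myh7 and Myh7b are the widest.

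Of all genes tested, 10 of 15560 (0.0643%) passed for old PBS against young PBS, 17 of 15682 (0.108%) for old rMETRNL against old PBS and 0 of 15396 (0%) for old rMETRNL against young PBS, and 0 of the 5 members passed in each. Without old PBS 3, 401 and 1560 genes passed in the first pair of these comparisons, again with no member among them, and Myh4 came closest with a log2 fold change of -0.84 for old rMETRNL against old PBS (edgeR adjusted p 0.0955). At an unadjusted p under 0.05 in edgeR there were 920 genes (5.91%), 1266 genes (8.07%) and 371 genes (2.41%), with 0 members among them. DESeq2 called 265 genes (1.42%), 354 genes (1.78%) and 0 genes, again with 0 members. At an unadjusted p under 0.05 its Wald test had 1302, 1747 and 355 genes. Myh1 was among the second of these, at 0.56 (interval 0.006 to 1.11, Wald test p 0.0475, adjusted 0.567). Myh4 was among the third, at -0.35 (interval -0.65 to -0.05, Wald test p 0.0214, adjusted 0.9998), and no other member was in any. The level of a member did not separate any 2 groups without overlap, where 10.5%, 12.6% and 7.07% of 16124 genes did so in the same order of comparisons. The edgeR intervals set what could have been missed: a change in Myh4 or Myh1 between old rMETRNL and young PBS was bounded within -0.81 and 0.75, while for Myh7 the data allow large changes either way. In bulk tissue, fewer fibres of a type and less of its RNA per fibre cannot be told apart.

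The members were next expressed as shares of their summed level per length. Myh4 and Myh1 together held 97.2% to 99.0% of it in every library. The share of Myh4 was 61.8%, 64.1% and 61.4% in young PBS 1, 2 and 3, 73.5%, 46.6% and 78.9% in old PBS 2, 3 and 4, and 46.0%, 43.2% and 67.1% in old rMETRNL 1, 2 and 3. The share of Myh1 was 37.0%, 33.2% and 37.6%, then 24.5%, 51.2% and 19.9%, then 52.5%, 54.2% and 30.2%. In 3 libraries, old PBS 3 and old rMETRNL 1 and 2, Myh1 was the leading chain, and in the other 6 it was Myh4.

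The group means of the Myh4 share were 62.4% ± 1.44 in young PBS, 66.3% ± 17.3 in old PBS and 52.1% ± 13.1 in old rMETRNL (SD, n = 3). The SD of either old group was thus several times that of the young group. Myh1 had means of 35.9% ± 2.41, 31.9% ± 16.9 and 45.6% ± 13.4 (SD, n = 3). From old PBS to old rMETRNL the mean share of Myh4 differed by -14.2 points and that of Myh1 by 13.7 points, each with p = 0.2 in the two-sided exact permutation test. With 1 library left out, the difference ranged from -24.1 points (without old PBS 3) to -7.95 (without old PBS 4) for Myh4 and from 7.71 (without old PBS 4) to 23.4 (without old PBS 3) for Myh1. Over all 15 tests of shares, the adjusted p of the exact permutation test was 0.9 throughout, and 3 libraries against 3 cannot go below 0.1.

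Myh2 held 1.03% to 2.75% of the summed level. Myh7 held 0.00125% to 0.0574% and Myh7b at most 0.0057%. The largest shares of Myh2 were 2.75% in young PBS 2, 2.69% in old rMETRNL 3 and 2.66% in old rMETRNL 2.

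**Figure D3:**
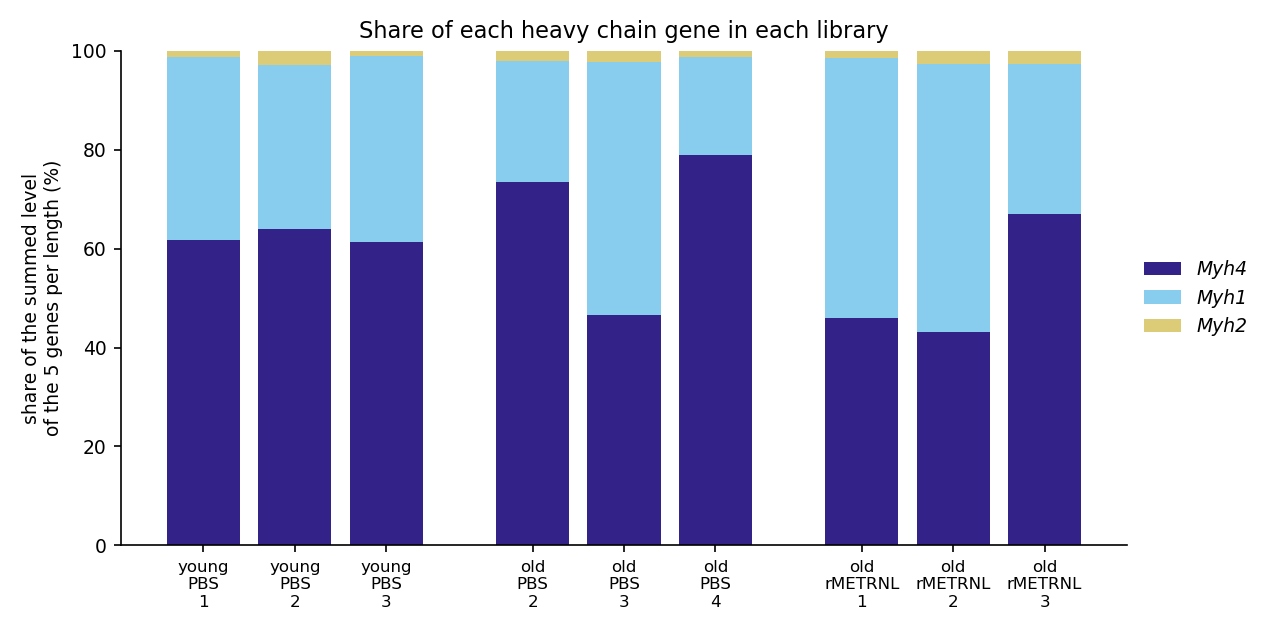
Share of Myh4, Myh1 and Myh2 in the summed level per length of the 5 genes (%), 1 bar for each library. Myh7 and Myh7b are too small to be seen. The 3 young PBS bars look alike, with Myh4 at 61.4% to 64.1%, and the old bars range from 43.2% to 78.9%.

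The sum of Myh4 and Myh1 behaved differently from either gene. It was 44196 to 45426 CPM in young PBS and 41932 to 42121 CPM in old rMETRNL so that libraries of the same group lay within 1.03-fold of each other. In old PBS it was 57272, 30408 and 45691 CPM, a range of 1.88-fold. The ratio of Myh4 to Myh1 per length, in contrast, was 1.67, 1.93 and 1.63 in young PBS, 2.99, 0.909 and 3.97 in old PBS, and 0.876, 0.797 and 2.23 in old rMETRNL. The 3 old rMETRNL libraries thus had nearly the same sum with a ratio that differed 2.79-fold.

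Across the 9 libraries the correlation of log2 levels was computed for all 10 pairs of members. Myh2 and Myh7 rose and fell together, with Pearson's r = 0.92 (exact permutation p = 0.00275, adjusted over the 10 pairs 0.0275) and Spearman's rho = 0.93 (exact permutation p = 0.00075, adjusted 0.0075). With young PBS 2 and old rMETRNL 3 left out, r was 0.89. Myh4 and Myh1 had a negative correlation that did not pass, with r = -0.63 (exact permutation p = 0.0673, adjusted 0.224) and rho = -0.75 (exact permutation p = 0.0255, adjusted 0.0922), and r was -0.94 without old PBS 2 and 3 and -0.46 without old PBS 4 and old rMETRNL 2. The other 8 pairs had an adjusted p of 0.0922 or more by either measure in the exact permutation test. The points share the scaling of each library. With each gene centred on its group means, an analysis added after the data were seen, r was 0.94 for Myh2 and Myh7 (exact permutation within groups, p = 0.00463, the smallest that 216 permutations give, adjusted 0.0463) and -0.61 for Myh4 and Myh1 (exact permutation p = 0.282, adjusted 0.565).

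**Figure D4:**
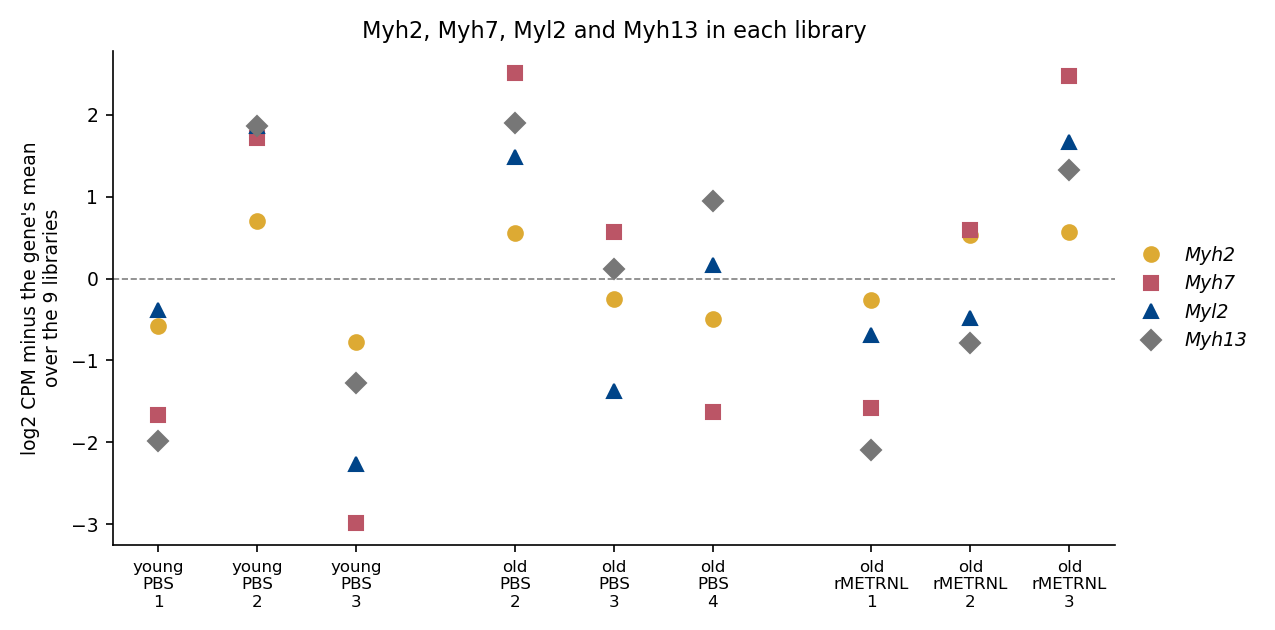
Myh2, Myh7, the slow light chain Myl2 and Myh13 in each library, as log2 CPM minus the mean of that gene over the 9 libraries. Young PBS 2, old PBS 2 and old rMETRNL 3 are above the mean for all 4 genes, and young PBS 1, young PBS 3 and old rMETRNL 1 are below it for all 4.

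The libraries high in Myh7 were also high in other genes of low level. The slow ventricular light chain Myl2 was at 35.5, 27.3 and 31.1 CPM in young PBS 2, old PBS 2 and old rMETRNL 3, and at 2.03 to 10.9 CPM in the other 6. Myh13, the chain of extraocular muscle, had 45, 38 and 38 counts in these 3 libraries and 3 to 21 elsewhere. Both were picked out after their values were seen. Young PBS 2 is the library with keratinocyte RNA, while the other 2 had 18.3 and 13.3 CPM of those markers, the latter the lowest of the 9 libraries. What these 3 libraries share was not tested.

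The developmental chains stood apart in 1 library. Myh3, the embryonic chain, was at 1256 CPM in old PBS 3, at 55.5 CPM in old PBS 4 and at 158 to 413 CPM in the other 7. Myh8, the neonatal chain, was at 1760 CPM in old PBS 3, at 123 CPM in old PBS 4 and at 382 to 708 CPM elsewhere. Together they held 6.64% of the summed level of 7 heavy chains in old PBS 3, 0.258% in old PBS 4 and 0.788% to 1.81% in the other libraries. These shares used exon length, which for Myh8 is 11772 bases against 6149 for its longest transcript. Division by the latter would give Myh8 a larger share, which was not computed. Old PBS 3 was also the library lowest in Myh4, and old PBS 4, second highest in Myh4, was lowest in both developmental chains.

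**Figure D5:**
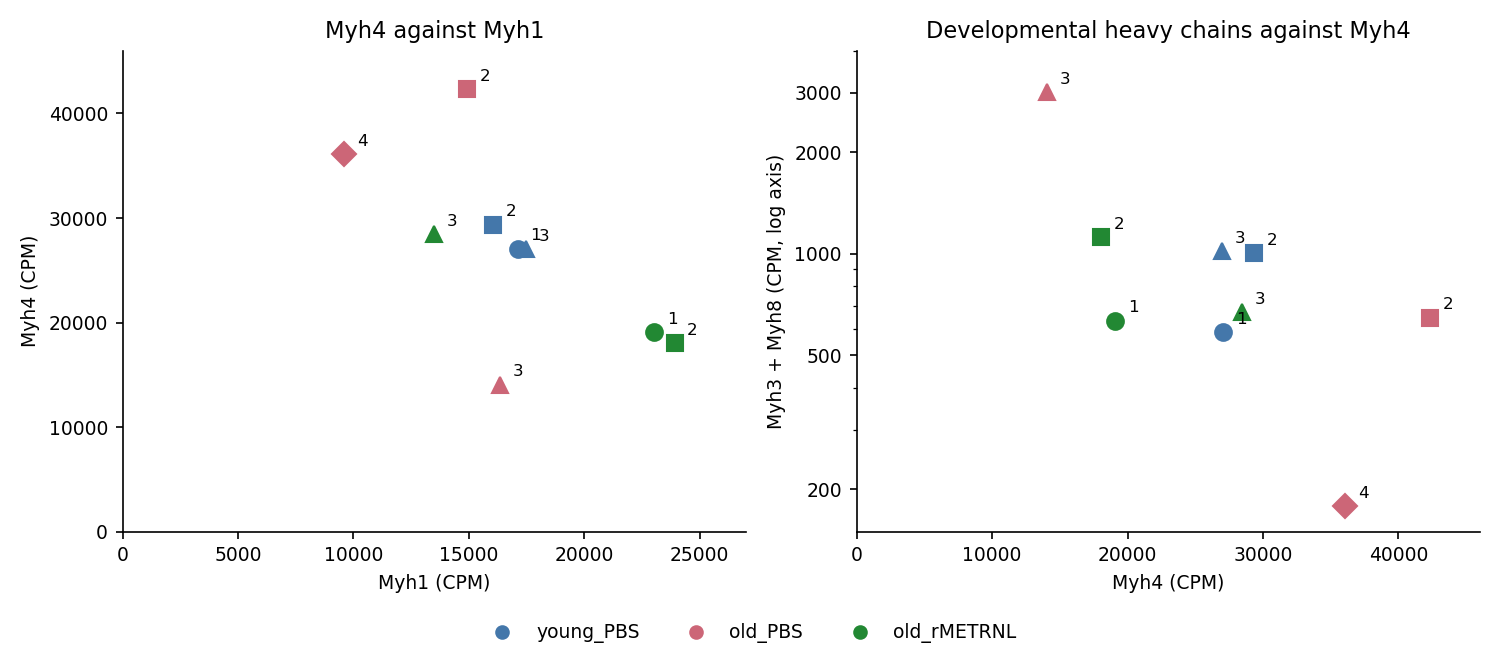
Left, Myh4 against Myh1 (CPM) in each library. Right, the sum of the developmental chains Myh3 and Myh8 (CPM, log axis) against Myh4. Colours are groups and numbers are libraries. The young PBS points cluster, old PBS 2 and 4 are high in Myh4, and old PBS 3 combines the lowest Myh4 with the highest developmental sum, 3016 CPM.

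The 8 genes of newly formed fibres, Myh3 and Myh8 included, summed to 5163 CPM in old PBS 3, 721 CPM in old PBS 4 and 1443 CPM in old PBS 2, against 2083 to 2379 CPM in young PBS and 1674 to 2363 CPM in old rMETRNL. None passed the test in any comparison. The edgeR log2 fold change of Myh3 was 0.86 (SE 0.86) and that of Myh8 0.38 (SE 0.78) for old PBS against young PBS, with adjusted p of 0.994 for both. Of the other striated chains, the heart chain Myh6 was at 0.06 to 2.08 CPM and Myh13 at 0.16 to 2.56 CPM.

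The fast partners include light chains, troponins and calcium-handling genes. Of 12 fast fibre partners, 0 of 12 passed the test in any of the 3 comparisons (background 0.0643%, 0.108% and 0%), and their median log2 fold changes were 0.04, -0.19 and -0.16, beside 0.01, -0.01 and 0.00 over all genes tested. The 4 of highest level per length were the light chains Mylpf and Myl1, the fast troponin Tnnt3 and the calcium buffer Pvalb. Pvalb was at 6464 to 10013 CPM in young PBS, at 6778, 3381 and 10599 CPM in old PBS 2, 3 and 4, and at 5460 to 8701 CPM in old rMETRNL. Tnnt3 was at 13828, 8306 and 19729 CPM in old PBS and at 10483 to 14404 CPM in the other 6 libraries. Mylpf, whose old PBS range was 8101 to 13114 CPM, and Myl1 were lowest in old PBS 2 and old PBS 3 respectively. The fast troponin gene Tnnc2, also in the list and its medians, was at only 1.28 to 2.96 CPM, against 2950 to 7986 CPM for Tnni2. Why Tnnc2 was so low was not tested.

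Of the 12 slow fibre partners, 11 were tested and none passed, with median log2 fold changes of 0.31, -0.26 and 0.05. Casq2 (a calcium store protein), the stretch-responsive ankyrin protein Ankrd2, the calcium pump Atp2a2 and the slow troponin Tnni1 were the 4 of highest level per length. Casq2, Atp2a2 and Tnni1 were highest in old PBS 3, at 502, 381 and 329 CPM, and lowest in old PBS 4, at 101, 97.2 and 43.9 CPM. Tnni1 did not follow Myh7: it was at 71.9 CPM in old PBS 2, where Myh7 was highest, and at 329 CPM in old PBS 3. The r of Tnni1 with Myh7 over the 9 libraries was 0.24, with rho of 0.07. Myl2, of the same list, had r of 0.78 and rho of 0.67 with Myh7.

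Genes of fibres of either type had 13 of 16 positive estimates for old PBS against young PBS and 14 of 16 negative ones for old rMETRNL against old PBS. None passed, and their medians were 0.12 and -0.20, beside 0.01 and -0.01 over all genes tested. The 4 highest were the actin Acta1, the creatine kinase Ckm, the titin cap Tcap and desmin (Des). Acta1 ranged from 19721 CPM in old PBS 3 to 29943 CPM in old PBS 4, and Ckm from 4687 to 11103 CPM in the same 2 libraries. Ckm followed Myh4, with r = 0.85 and rho = 0.85 over the 9 libraries, a description of a pair noticed after its values were seen. Scaled by the summed counts of these 16 genes in place of TMM, no member passed either.

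Regulators of fibre type were measured at lower levels and none of 17 passed. The 4 highest per length were Tbx15, a factor of glycolytic fibres, Mef2c and Mef2d, factors that drive muscle genes, and Vgll2, a cofactor of TEAD factors. Tbx15 was at 314, 327 and 232 CPM in young PBS 1, 2 and 3, 370, 207 and 391 CPM in old PBS 2, 3 and 4, and 213, 249 and 298 CPM in old rMETRNL 1, 2 and 3. The young PBS and old PBS libraries, but not the old rMETRNL ones, were in the same order as for the ratio of Myh4 to Myh1. Ckm put the old PBS libraries in that order too, and these orders were noticed after the values were seen. The median log2 fold change of the list was 0.14 for old PBS against young PBS, -0.24 for old rMETRNL against old PBS and -0.07 for old rMETRNL against young PBS.

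Genes of myosin folding and assembly also gave no call among 8. All 8 had negative estimates for old rMETRNL against old PBS, between -0.33 and -0.05, with a smallest edgeR adjusted p of 0.695. Their median was -0.25, beside -0.01 over all genes tested. The chaperone Hsp90ab1, the myofibril scaffold Nrap, the methyltransferase Smyd1 and Cavin4, a protein of fibre caveolae and assembly, were the 4 highest per length. Hsp90ab1 ranged from 845 to 1219 CPM over the 9 libraries, Nrap from 914 to 1561, Smyd1 from 333 to 509 and Cavin4 from 136 to 226 CPM. The smooth and non-muscle chains Myh9, Myh14, Myh10 and Myh11 summed to 191 to 367 CPM, and none passed.

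The annotation places 1 lincRNA and 2 antisense genes among the fast genes. The lincRNA 2310065F04Rik, on the minus strand between Myh3 and Myh2, was at 34.5, 40.8 and 16.1 CPM in young PBS 1, 2 and 3, 63.5, 11.9 and 103 CPM in old PBS 2, 3 and 4, and 12.9, 15.4 and 37.3 CPM in old rMETRNL 1, 2 and 3. Its levels followed those of Myh4 (r = 0.88, rho = 0.97) and ran against those of Myh1 (r = -0.81, rho = -0.77). The antisense gene Myhas, which overlaps Myh1 and reaches to just before Myh4, was at 43.9 to 81.9 CPM, with r of 0.69 with Myh4 and -0.62 with Myh1. The antisense gene 9430073C21Rik, which overlaps the 3′ end of Myh2, was at 3.43 to 10.5 CPM, with r of 0.69 with Myh4, -0.47 with Myh1 and 0.73 with Myh2. These values were picked out after they were seen and share the scaling of the libraries.

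The genes whose pattern over the 9 libraries was most like that of each member were found among the 16124 genes kept, by Pearson's r of log2 levels. For Myh4 they were Vps35 (r = 0.986), Elp3, Ppp1r3a, a subunit that targets a phosphatase to glycogen in muscle, Rdx and Ulk2, the last 4 with r of 0.972 to 0.980. For Myh1 they were Plekho2 (r = 0.969), Mex3d, Tnks1bp1, Lrrc23 and Pheta2. Myh7 was itself the gene most like Myh2 (r = 0.916), followed by Eif2s3x, 4930506C21Rik, Gm28783 and Usp49. For Myh7 they were Ptch1 (r = 0.949), Myh2, Rbm25, Tsc22d2 and Adra1d, and for Myh7b they were Myh6 (r = 0.919), Cfap97, Mindy1, Zfp518a and Gm43457. Being the highest of many correlations over 9 points, these carry no test.

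Markers of other cell types were summed in each library. The 8 genes of fibro-adipogenic cells summed to 4261 to 7841 CPM in old PBS, against 9723 to 13226 CPM in young PBS and 8989 to 14715 CPM in old rMETRNL, and the 8 macrophage genes to 1053 to 1366 CPM, against 1373 to 1633 and 1521 to 1777 CPM. The collagens Col3a1 and Col1a1 had the highest group means of the first list, at 6456 and 3012 CPM in young PBS, 3202 and 1323 CPM in old PBS and 7078 and 2638 CPM in old rMETRNL. In the same order of groups, the means of Dcn were 718, 774 and 850 CPM and those of Ly6a 77.7, 86.3 and 87.7 CPM. Both were thus higher in old PBS than in young PBS, and highest in old rMETRNL. No gene of either list passed edgeR's test, while DESeq2 called Col3a1 lower in old PBS against young PBS (log2 fold change -1.02, adjusted p 0.0430) and called Col3a1 (1.14, adjusted p 0.0198) and Dpt (0.80, adjusted p 0.0248) higher in old rMETRNL against old PBS. At an unadjusted p under 0.05, edgeR had 3 and 6 of the 8 fibro-adipogenic genes and 2 and 3 of the 8 macrophage genes in these comparisons. Of all genes tested, 5.91% and 8.07% did so. The levels of 10.5% and 12.6% of 16124 single genes separated the same groups without overlap. Endothelial genes summed to 245 to 359 CPM in old PBS and to 345 to 444 CPM in the other 2 groups, so the ranges overlapped. The 6 genes of muscle stem cells and myoblasts summed to 229 CPM in old PBS 3 and 68.0 CPM in old PBS 4, the highest and the lowest of the 9 libraries, and the 5 smooth muscle genes to 283 and 144 CPM in the same libraries, again the extremes. The part of these cell types in the levels of the heavy chains was not tested.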

How the data were processed

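RNA of injured muscle was sequenced in 9 libraries, 3 in each of 3 groups, from paired-end NEBNext Ultra libraries. The deposited values are raw counts: per gene and library, the authors give how many reads fell on an Ensembl gene, with no scaling applied. The submitters' processing notes name STAR, featureCounts and the build mm9, without versions or strand settings. Of 54532 identifiers, 54409 matched a GRCm38 annotation (GENCODE vM21), which supplied symbols, coordinates and exon lengths.

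Each pair of groups was fitted on its own 6 libraries in edgeR 4.0.16 under R 4.3.3 (filterByExpr, TMM, glmQLFit and glmQLFTest, Benjamini-Hochberg adjustment over all genes tested, threshold 0.05). Standard errors are the log2 fold change over the root of F. CPM used TMM factors of a joint 9-library normalization, and was divided by exon length where genes are compared. Shares were tested with the exact permutation test over 20 splits (SciPy 1.17.1). For correlations, CPM was put on the log2 scale after adding a prior count of 2. The floor was 3 counts, and intervals and floors cover counting error only. The fit was tested on simulated data.

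All 5 members are named. From each of 8 gene lists, the genes past the threshold in any comparison and the 4 of highest level per length are named, and, for each member, the 5 genes of most similar pattern. Any other gene was picked once its values had been seen. The members, lists and tests were chosen with earlier results of these data known. Alternatives were DESeq2 1.42.0, other filters and scalings, a joint fit of the 9 libraries, a replicate block, other lengths and leaving out each library, and, added after the data were seen, correlations centred on group means. Replicate numbers were checked for pairing, which the check did not settle. Promoters came from RefSeq (GRCm38.p6), where all 5 members were matched. The labels give no batch or date.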

Additional observations from a re-analysis of the deposited data

How the results depend on the processing

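Under the settings that kept all libraries, 96 of 102 log2 fold changes of the members and 45 of 45 differences of shares kept their direction and their side of the threshold. For old PBS against young PBS, 10 genes passed, against 63 in the fit of all 9 libraries, 3 with at least 10 counts in every library, 265 by DESeq2 and 354 with no filter. In old rMETRNL against old PBS, 17 passed, against 71, 1, 354 and 740 under the same settings and 65 with the replicate block. In old rMETRNL against young PBS, 0 passed, against 132 with no filter. The log2 fold change of Myh7 for old rMETRNL against young PBS, 1.0, was 1.01 and passed with no filter, where its own spread had no weight. That of Myh7 for old rMETRNL against old PBS, -0.01, was 0.00043 with all 9 libraries, 0.0093 with no filter, 0.0014 with the replicate block and 0.078 scaled by fibre genes. That of Myh4 for old PBS against young PBS, 0.15, was -0.21 with the replicate block. Same-numbered libraries correlated at -0.18 to 0.023 between young PBS and old rMETRNL, at 0.11 and 0.41 between young PBS and old PBS, and at -0.049 and -0.32 between old PBS and old rMETRNL. The 0.41 was the highest value of any pair of libraries from different groups, so the check did not settle whether young PBS and old PBS libraries are paired. The block changed no other direction and made no member pass. It gave 0.19 in place of 0.56 for Myh1 between old rMETRNL and old PBS. Centring on group means, added after the data were seen, kept the direction of 9 of 10 correlations between members and turned that of Myh1 and Myh2 from 0.096 to -0.046.

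With 1 library left out, genes passing ranged from 2 to 401 for old PBS against young PBS, 3 to 1560 for old rMETRNL against old PBS and 0 to 1 for old rMETRNL against young PBS, the highest of the first 2 without old PBS 3. For old PBS against young PBS, log2 fold changes ranged from -0.31 to 0.68 for Myh2, -0.15 to 0.49 for Myh4, -0.44 to 3.49 for Myh7 and -0.41 to 1.60 for Myh7b. Myh7 ranged from -1.44 to 1.43 for old rMETRNL against old PBS. For old rMETRNL against young PBS, Myh7 ranged from -0.43 to 3.49 and Myh7b from -1.49 to 1.13. Differences of shares for old PBS against young PBS ranged from -13.7 to 1.96 points for Myh1, -0.19 to 0.67 for Myh2, -2.38 to 13.8 for Myh4 and -0.000496 to 0.00212 for Myh7b. For old rMETRNL against old PBS, the share of Myh7 ranged from -0.0129 to 0.0140 points. For old rMETRNL against young PBS, that of Myh7 ranged from -0.0022 to 0.0247 and that of Myh7b from -0.0015 to 0.0011 points. Direction turned in 14 of the log2 fold changes and 13 of the shares, and no member passed.

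Counts of Myh7 and Myh7b are small, and their standard errors, at 0.63 to 1.18, were the largest of the members with 3 libraries a group. The cause of the differences between counts of genes passing was not tested.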
